A study of Arabidopsis thaliana with 9 samples.

Results

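The miRNAs miR173 and miR390 start the production of trans-acting small interfering RNAs (tasiRNAs) in Arabidopsis thaliana, and their mature products were followed in leaves of plants with mutations in SE or CHR2. All entries whose name starts with ath-miR173- or ath-miR390 were taken, whatever their values, which gave 6 of the 427 mature miRNA entries. These are ath-miR173-5p, ath-miR173-3p, ath-miR390a-5p, ath-miR390a-3p, ath-miR390b-5p and ath-miR390b-3p, the 5p and 3p arms of 3 hairpins, written below without the prefix. The series compared 3 genotypes by small RNA sequencing of leaves from 3-week-old plants, with 3 libraries each: se-2, a mutant of SE (SERRATE, a partner of the dicing enzyme DCL1 in miRNA processing), chr2, a mutant of CHR2 (an ATPase subunit of SWI/SNF chromatin remodelling complexes), and wild type (WT). The labels name no treatment and, for chr2, no allele, and they do not say whether the libraries of a genotype came from separate plants, so the p-values measure only the spread between these libraries. SE and CHR2 transcripts are not among miRNA entries, so the genotype labels were not checked on the mutated genes here.

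A tasiRNA begins when an miRNA loaded in an Argonaute protein cuts or binds a non-coding TAS transcript, which is then copied into double-stranded RNA by RDR6 and diced in register by DCL4. miR173-5p acts in AGO1 on the TAS1 and TAS2 transcripts, whose tasiRNAs are known to target genes for pentatricopeptide repeat proteins. miR390 acts in AGO7 on TAS3 transcripts, which carry a site on either side of the tasiRNA region, and the TAS3 tasiRNAs repress the auxin response factors ARF3 and ARF4 and so act in leaf polarity and the timing of the juvenile phase. The 3p arms of these hairpins are regarded as passenger strands, which pair with the guide strand in the diced duplex.

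The mature sequences are shown because the counts of the entries depend on them, with the seed (bases 2 to 8) in capitals. They were read from the RefSeq annotation of assembly TAIR10.1, to which all 427 entry names were matched.
miR173-5p: uUCGCUUGcagagagaaaucac
miR173-3p: uGAUUCUCuguguaagcgaaa
miR390a-5p and miR390b-5p: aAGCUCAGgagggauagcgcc
miR390a-3p: cGCUAUCCauccugaguuuca
miR390b-3p: cGCUAUCCauccugaguucc

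The miR173 arms lie at chr3:8236161-8236182 (5p) and chr3:8236227-8236247 (3p) in MIR173 (AT3G23125). The miR390a arms lie at chr2:16061971-16061991 and chr2:16062023-16062043 in MIR390a (AT2G38325), and the miR390b arms at chr5:23636961-23636981 and chr5:23637034-23637053 in MIR390b (AT5G58465). All are on the plus strand, and 0 other annotated genes overlap them. miR173-5p has 22 nt, a length known for triggers of secondary siRNAs, whereas miR390-5p has 21 nt. The 5p arms of MIR390a and MIR390b are the same sequence, and their deposited counts differed by 0 to 18 in the 9 libraries, at most 0.13% of the miR390a-5p count. A read of this sequence was therefore apparently counted for each copy, and the entries are 1 measurement, given below as miR390a-5p. The 3p arms share their first 18 bases and differ at the next base and in length (21 and 20 nt), so their sequences can tell the miR390 loci apart. Whether the counting kept them apart is not given. The seeds of the miR173 arms occur in 1 entry each, and each miR390 seed in the 2 miR390 entries.

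The hairpins are shown because the arm balance described below is read from them. Both mature arms are in capitals, and 44 bases in MIR173, 31 in MIR390a and 52 in MIR390b lie between the arms.
MIR173: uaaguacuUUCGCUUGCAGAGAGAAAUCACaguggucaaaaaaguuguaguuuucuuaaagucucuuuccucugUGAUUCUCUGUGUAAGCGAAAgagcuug
MIR390a: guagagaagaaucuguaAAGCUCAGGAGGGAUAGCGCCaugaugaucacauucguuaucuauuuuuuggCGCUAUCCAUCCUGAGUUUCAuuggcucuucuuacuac
MIR390b: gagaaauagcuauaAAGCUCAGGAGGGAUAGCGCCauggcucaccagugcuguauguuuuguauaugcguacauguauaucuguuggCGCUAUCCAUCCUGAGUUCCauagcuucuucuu

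Sites for the triggers were searched in the annotated TAS transcripts by ungapped pairing with the whole miRNA, scoring 1 for a mismatch and 0.5 for a G:U pair, and they show which transcript each trigger pairs with. In the sites below, bases that do not form a Watson-Crick pair with the miRNA are in capitals.
TAS1A site of miR173-5p: gugauuuUucucuAcaagcgaa
TAS2 site of miR173-5p: gugauuuUucucuCcaagcgaa
TAS3 first site of miR390-5p: ggUgUuauccUAUcugagcuu
TAS3 second site of miR390-5p: UUGUcuaucccuccugagcuA

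The TAS1A site lies at chr2:11722081-11722102 and the TAS2 site at chr2:16539991-16540012, both on the minus strand, and each scored 1.5 against miR173-5p. The TAS1C site had the letters of the TAS1A site, and the TAS1B site scored 2.5. The TAS3 sites lie at chr3:5862099-5862119, which scored 3.0 against miR390-5p, and at chr3:5862343-5862363, which scored 5.0, both on the plus strand. With the triggers exchanged, the best score was 7.5 to 8.5 for miR390-5p in the TAS1 and TAS2 transcripts and 7.0 to 8.5 for miR173-5p in TAS3 and the 2 other TAS3 loci searched. These pairings are descriptions of sequence. The libraries were counted over miRNA entries, so tasiRNAs and cleavage of the TAS transcripts were not analysed here.

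The deposited counts summed to 130482 to 195415 per se-2 library, 637283 to 908635 per chr2 library and 1280294 to 1588242 per WT library. These sums cover miRNA entries alone and are not the depth of the libraries, so fewer miRNA molecules per cell, a smaller miRNA share of small RNA and shallower sequencing cannot be told apart. At these totals, 3 counts, the upper limit that a count of 0 allows, equal 15.4 to 23.0 CPM (counts scaled to a common library size, here before TMM) in a se-2 library, 3.30 to 4.71 CPM in a chr2 library and 1.89 to 2.34 CPM in a WT library. Levels below are CPM scaled by TMM, which takes the average miRNA as constant. The annotated mature sequences of the entries followed have 20 to 22 nt, so CPM were compared between arms without a length correction. How reads were assigned to entries is not given, so a count is not shown to be of the whole mature RNA alone.

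In se-2 leaves both tasiRNA triggers were lower than in WT leaves, and by very different amounts. miR173-5p, the TAS1 and TAS2 trigger, was close to absent in se-2, with 12.9 ± 8.45 CPM, while WT had 300.8 ± 56.2 CPM (SD, n = 3 each). miR390a-5p, the TAS3 trigger, was 1.44-fold lower, with a mean of 7353 ± 479.4 CPM in se-2 against 10552 ± 519.7 CPM in WT. All 6 entries passed the limit as lower in se-2 (edgeR's quasi-likelihood test over 270 entries, adjusted by Benjamini and Hochberg, limit 0.05), against 30.4% of all tested entries called lower and 42.2% called higher in the same comparison. That background depended on the scaling, with 118 entries called lower and 96 higher under DESeq2 size factors and 191 lower and 16 higher under a reference scaling described below, beside 82 and 114 with TMM. The median log2 fold change was -1.92 over the 6 entries and 0.11 over all entries tested. The 6 entries hold 5 distinct sequences. Here and below, the shared miR390 5p measurement therefore enters the counts and medians of the 6 entries once per copy.

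In chr2 leaves neither trigger passed the limit against WT. miR173-5p averaged 246 ± 96.7 CPM in chr2, with libraries that overlapped those of WT, and miR390a-5p averaged 7798 ± 1267 CPM. Of the 6 entries 1 passed the limit as lower in chr2, miR173-3p, against 19.6% of all tested entries called lower and 10.4% called higher. The median log2 fold change was -0.43 over the 6 entries and -0.15 over all entries. Between the mutants, 4 of the 6 entries were lower in se-2 than in chr2. The exceptions were the miR390 5p entries, which repeat the same measurement. In that comparison 33% of all tested entries were called lower and 47.4% higher, and the medians were -1.48 over the 6 entries and 0.51 over all. The comparisons with WT share the 3 WT libraries, so they are not independent of each other.

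**Figure D1:**
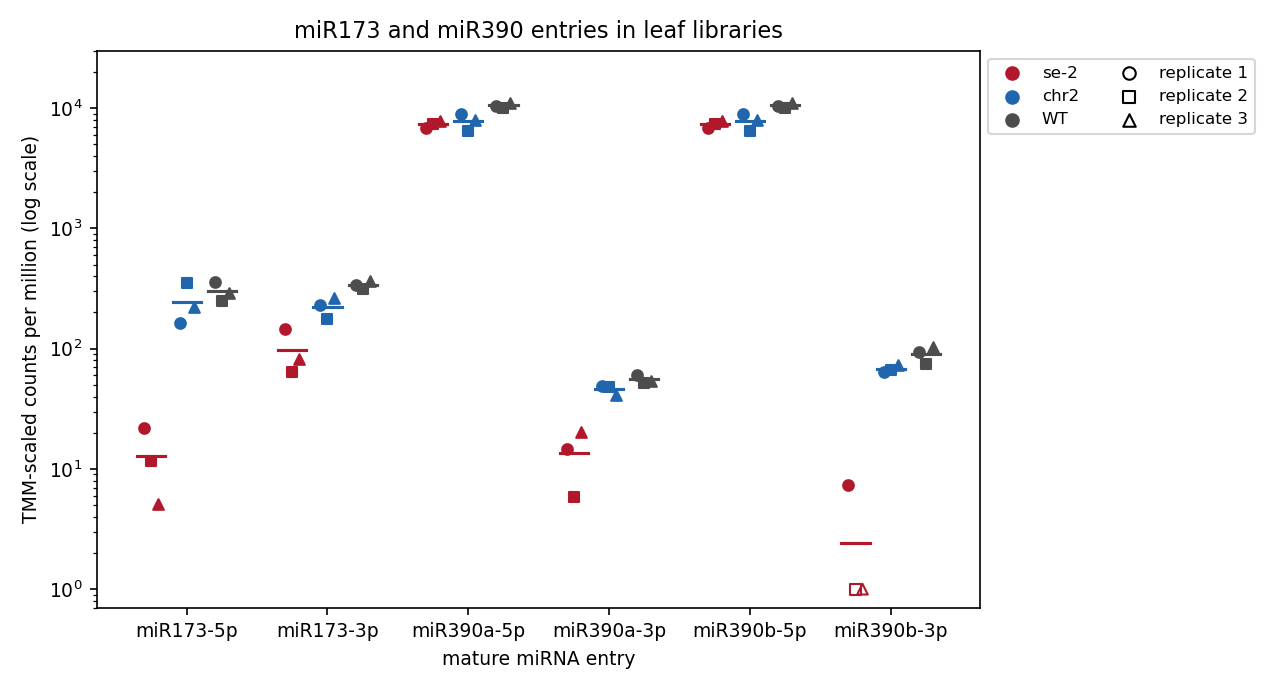
TMM-scaled CPM (log axis) of the 6 entries in each library, with se-2 in red, chr2 in blue and WT in grey, symbols for replicates and bars for the genotype means (n = 3). Open symbols drawn at 1 stand for libraries with 0 counts. The se-2 libraries lie under all WT libraries for every entry, by the widest gaps in miR173-5p and miR390b-3p and by the narrowest in the miR390 5p entries. The share of all tested entries that separate in this way is not given here. In se-2 against WT 30.4% of them were called lower and 42.2% higher.

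The guide strand miR173-5p had 3, 2 and 1 counts in the se-2 libraries. It had 119, 360 and 124 counts in the chr2 libraries, and 481, 292 and 407 counts in the WT libraries. Every se-2 library was thus at or under 3 counts, whereas chr2 and WT libraries overlapped on the CPM scale. The level fell by 4.64 on the log2 scale (SE 0.46) in se-2 against WT, and edgeR's quasi-likelihood test gave an adjusted p of 8.5e-10. Relative to all miRNA counts, the 6 counts in se-2 against 1180 in WT made a 22.9-fold lower share, with a 95% interval of 10.5 to 62.6 that covers counting error only. Against chr2, miR173-5p was lower in se-2 by a log2 value of -4.36 (adjusted p = 3.8e-09 with edgeR).

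The log2 fold change of miR173-5p in chr2 against WT was -0.28 (SE 0.24), with an adjusted p of 0.41 by edgeR's test. The chr2 libraries had 163, 352 and 222.5 CPM, against 361, 249.8 and 291.7 CPM in the WT libraries. Replicate 2 was the highest chr2 library and stood above 2 of the 3 WT libraries. The sign of this difference was not stable, since without chr2 replicate 1 the log2 value was 0.17, without chr2 replicate 3 it was 0.01 and without WT replicate 1 it was 0.07.

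The guide strand miR390a-5p had 945, 1261 and 1535 counts in the se-2 libraries. It had 6538, 6595 and 4442 counts in the chr2 libraries, and 13995, 11758 and 15480 counts in the WT libraries. On the CPM scale the se-2 libraries lay between 6887 and 7845, the chr2 libraries between 6453 and 8970 and the WT libraries between 10057 and 11093, so each mutant lay under WT without overlap while the mutants overlapped each other. The log2 fold change was -0.52 (SE 0.19) in se-2 against WT, with an adjusted p of 0.015 in edgeR's test, and -0.44 (SE 0.19) in chr2 against WT, with an adjusted p of 0.072. The se-2 call was lost without the filter on low counts (log2 of -0.41, adjusted p = 0.074 with edgeR). As a share of all miRNA counts, miR390a-5p made up 0.752 ± 0.031% in se-2, 0.731 ± 0.038% in chr2 and 0.969 ± 0.048% in WT. Against WT each difference had an exact two-sided permutation p of 0.1, the smallest that 3 against 3 libraries can give.

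The se-2 and chr2 levels of miR390a-5p did not differ beyond their spread with TMM, with a log2 value of -0.08 (SE 0.19) in se-2 against chr2 and an adjusted p of 0.69 by edgeR's test. This value depended on the scaling. It was 0.04 with total counts, -0.63 with DESeq2 size factors (adjusted p = 0.0028 in edgeR's test) and -2.08 with the reference scaling, which divides each library by its counts of 104 entries of families numbered 5000 and above (adjusted p = 3.2e-08 in edgeR's test).

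The arm regarded as the passenger strand, miR173-3p, had 20, 11 and 16 counts in the se-2 libraries. It had 167, 179 and 148 counts in the chr2 libraries, and 450, 365 and 508 counts in the WT libraries. The level averaged 97.1 ± 43.0 CPM in se-2, 223 ± 45.5 CPM in chr2 and 338 ± 25.9 CPM in WT, and the 3 genotypes did not overlap. In se-2 against WT it fell by 1.84 on the log2 scale (SE 0.28, adjusted p = 1.0e-06 by edgeR's test). The decrease in chr2 against WT was smaller, with a log2 value of -0.61 (SE 0.22, adjusted p = 0.033 by edgeR's test). That chr2 call held in 4 of 19 alternatives, with log2 values of -0.98 to -0.32 and adjusted p of 0.0040 to 0.35 across the 19, and it was lost on leaving out any 1 of the chr2 or WT libraries. Between the mutants miR173-3p was lower in se-2, with a log2 value of -1.23 and an adjusted p of 0.00037 in edgeR's test.

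The passenger strand miR390b-3p had 1, 0 and 0 counts in the se-2 libraries. It had 47, 68 and 41 counts in the chr2 libraries, and 125, 87 and 144 counts in the WT libraries. It was close to absent in se-2 and present in every chr2 and WT library. Its share of all miRNA counts in se-2 was 0.0241 times that in WT, with a 95% counting interval of 0.000609 to 0.135. The single se-2 count was in replicate 1. In the other se-2 libraries, picked because their count was 0, the share was at least 10.2-fold lower than in WT. That bound was computed against 3 counts summed over these libraries and does not hold for the genotype. Over all se-2 libraries the counting interval reached down to a 7.40-fold lower share. The fitted log2 fold change was -5.40 (SE 0.67, adjusted p = 3.3e-08 with edgeR) in se-2 against WT. With single libraries left out it ranged from -9.22 to -4.75, and at the low end, without se-2 replicate 1, all se-2 counts were 0 and the fitted value is no bound. For chr2 against WT the value was -0.42 (SE 0.23, adjusted p = 0.18 with edgeR), at 68.2 ± 4.77 CPM in chr2 and 90.5 ± 14.7 CPM in WT.

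The passenger strand miR390a-3p had 2, 1 and 4 counts in the se-2 libraries. It had 36, 49 and 23 counts in the chr2 libraries, and 81, 61 and 75 counts in the WT libraries. It was low in every se-2 library, and the se-2 CPM values lay under those of all chr2 and WT libraries. Relative to all miRNA counts, its 7 counts in se-2 against 217 in WT made a 3.61-fold lower share (95% counting interval 1.72 to 9.09). The log2 fold change was -1.99 (SE 0.44, adjusted p = 0.00018 with edgeR) in se-2 against WT and -0.26 (SE 0.23, adjusted p = 0.43 with edgeR) in chr2 against WT. Against chr2 the se-2 levels of both miR390 3p arms were lower, by log2 values of -1.74 for miR390a-3p (adjusted p = 0.0013 with edgeR) and -4.98 for miR390b-3p (adjusted p = 4.3e-07 with edgeR).

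**Figure D2:**
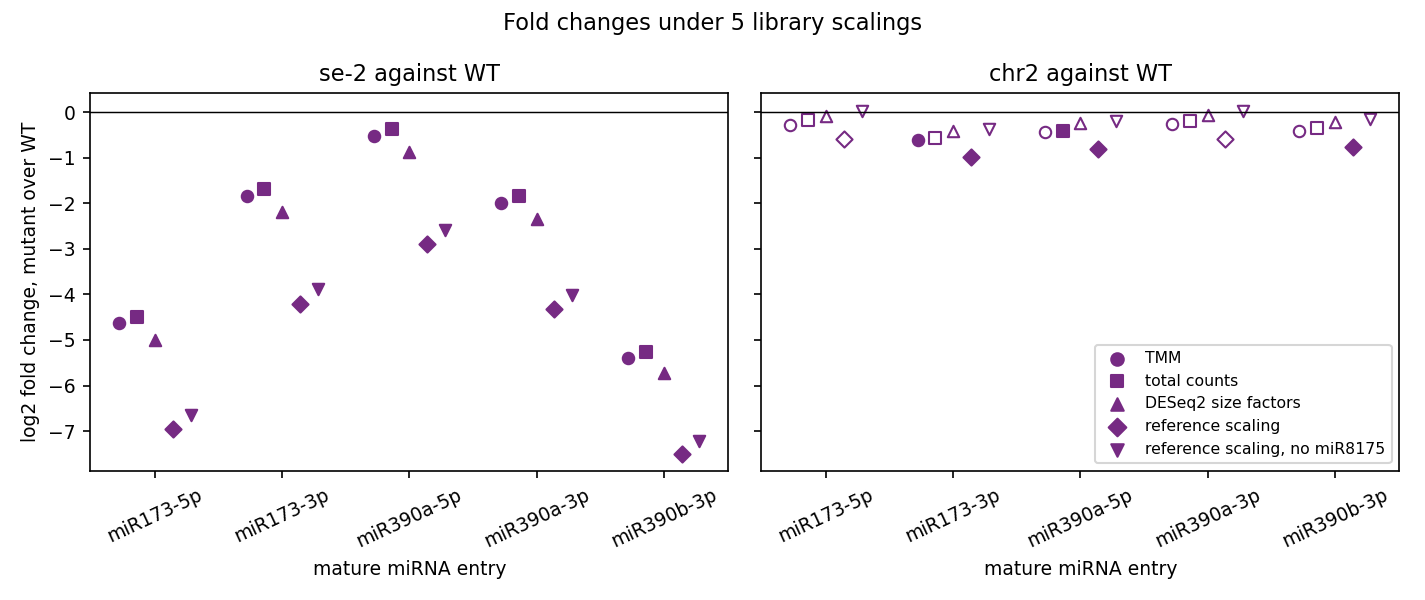
Log2 fold change of 5 of the 6 entries (miR390b-5p repeats miR390a-5p) in se-2 against WT (left) and chr2 against WT (right), with symbols for 5 ways of scaling the libraries; filled symbols passed the adjusted limit of 0.05 and open symbols did not. In se-2 all values lie under 0 and are filled, with miR390a-5p nearest to 0 in each scaling; in chr2 most symbols are open and lie near 0.

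Among the plotted entries miR390a-5p changed least in se-2 in each of the 5 scalings. The miR173-5p value ranged from -6.95 to -4.21 over 19 alternatives and passed the limit in 19 of them. The scaling sets the size of every fold change in se-2. With the reference scaling, the median entry shifted by -2.35 against TMM, miR173-5p had a log2 value of -6.95 and miR390a-5p of -2.89. A ratio of entries within a library does not carry this dependence.

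Within libraries, miR390a-5p outnumbered miR173-5p in every genotype, and by the widest margin in se-2. There were 315, 630.5 and 1535 counts of miR390a-5p for each count of miR173-5p in the se-2 libraries, against 54.9, 18.3 and 35.8 in the chr2 libraries and 29.1, 40.3 and 38.0 in the WT libraries. All se-2 libraries stood above all others, and the chr2 libraries lay on both sides of the WT libraries. The log2 ratio of miR173-5p to miR390a-5p, with 0.5 added to each count, was -9.02 ± 0.96 in se-2, -5.04 ± 0.80 in chr2 and -5.15 ± 0.25 in WT. The difference of se-2 minus WT was -3.87, and that of se-2 minus chr2 was -3.98, each with an exact two-sided permutation p of 0.1 and 0.15 after adjustment over the 12 tests of ratios and shares. No p below 0.1 is possible with 3 against 3 libraries. The difference of chr2 minus WT was 0.10 (exact permutation p = 0.8), and without chr2 replicate 2 it was -0.32.

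The arms of MIR173 were near balance in WT, whereas most miR173 reads in se-2 were of the 3p arm. The 5p arm made up 13.0%, 15.4% and 5.88% of the counts of both arms in the se-2 libraries, 41.6%, 66.8% and 45.6% in the chr2 libraries and 51.7%, 44.4% and 44.5% in the WT libraries. The se-2 shares rest on 23, 13 and 17 counts of both arms, and their exact Clopper-Pearson intervals were 2.78% to 33.6%, 1.92% to 45.4% and 0.149% to 28.7%. Over the summed counts, 6 of 53 were 5p in se-2, which is 11.3% (95% interval 4.27% to 23.0%), against 55.0% of 1097 in chr2 and 47.1% of 2503 in WT. The difference of mean shares was -35.4 percentage points for se-2 minus WT and -39.9 for se-2 minus chr2, each with an exact permutation p of 0.1 (adjusted 0.15).

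In chr2 the miR173 arm share was 51.3 ± 13.5%, against 46.9 ± 4.16% in WT, a difference of 4.47 percentage points (exact permutation p = 0.8). Replicate 2, with a 95% interval of 62.6% to 70.8%, lay above the other chr2 libraries and all WT libraries, with 360 counts of the 5p arm. Its 3p count of 179 was close to the 167 and 148 of the other chr2 libraries. Without this library the difference was -3.27.

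**Figure D3:**
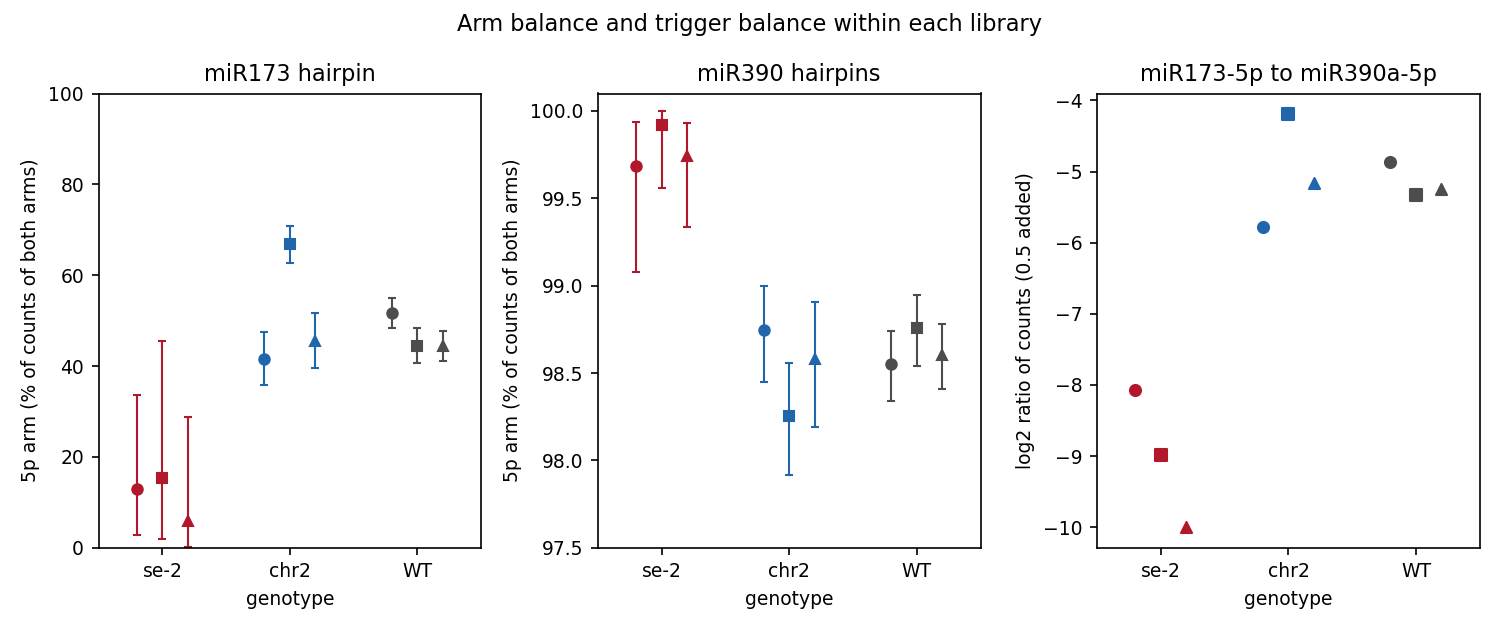
Share of the 5p arm in miR173 (left) and in miR390 (middle, axis enlarged near 100), in percent of the counts of both arms with exact 95% intervals, and the log2 ratio of miR173-5p to miR390a-5p counts (right), with 1 point per library (circle, square and triangle for replicates 1 to 3). The se-2 libraries lie under the others in the left and right panels and above them in the middle panel.

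The miR390 hairpins gave almost only 5p reads in every genotype, and in se-2 the 3p share was smaller still. With the shared 5p sequence counted once against both 3p arms, the 5p share was 99.7%, 99.9% and 99.7% in the se-2 libraries, 98.7%, 98.3% and 98.6% in the chr2 libraries and 98.5%, 98.8% and 98.6% in the WT libraries. All se-2 libraries were above all others, with 8 reads of 3p arms in 3749 reads over the 3 se-2 libraries. The difference was 1.14 percentage points for se-2 minus WT and 1.25 for se-2 minus chr2 (exact permutation p = 0.1 and adjusted p = 0.15 for each), and -0.11 for chr2 minus WT (exact permutation p = 0.6). The differences of the se-2 libraries from WT thus had opposite signs, towards the 3p arm in miR173 and towards the 5p arm in miR390.

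The 3p arms were also used for the balance of the miR390 loci, taking each 3p read as counted for its own locus. Of the 3p reads of both loci, miR390a-3p made up 2 of 3, 1 of 1 and 4 of 4 in the se-2 libraries, against 43.4%, 41.9% and 35.9% in the chr2 libraries and 39.3%, 41.2% and 34.2% in the WT libraries. The summed share in se-2 was 87.5% of 8 reads, with a 95% interval of 47.3% to 99.7%, against 40.9% of 264 reads in chr2 and 37.9% of 573 reads in WT. The mean of library shares differed by 50.6 percentage points for se-2 minus WT (exact permutation p = 0.1, adjusted 0.15) and by 2.14 for chr2 minus WT (exact permutation p = 0.5). With 8 reads in se-2, this balance had little depth behind it.

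The arm changes were set beside those of other hairpins, a comparison chosen after the values were seen and given without a test. In all, 60 hairpins had at least 30 counts, both arms together, over the libraries of each genotype. The mean log2 ratio of 5p to 3p counts was -2.74 in se-2 and -0.18 in WT for miR173, a change of -2.56, and 0 of the 60 hairpins moved further towards 3p while 4, miR390b among them, had a larger absolute change. It was 8.90 in se-2 and 7.56 in WT for miR390a, and 10.73 in se-2 and 6.87 in WT for miR390b, where both use the shared 5p count. That 5p count alone met the limit of 30 counts. miR390b-3p had 1, 0 and 0 counts in the se-2 libraries, so its se-2 ratio depends on the 0.5 added to each count. The change of miR390b, and its place above miR173, is therefore not a measured size. Of the 60 hairpins, 28 moved towards 3p and 32 towards 5p in se-2, with a median absolute change of 0.82. The arm that was the larger in WT gained share in 34 hairpins and lost share in 26. Hairpins with near-identical counts, such as miR398b and miR398c (changes of -0.505 and -0.507), were counted separately. The numbers of hairpins therefore include repeated measurements.

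**Figure D4:**
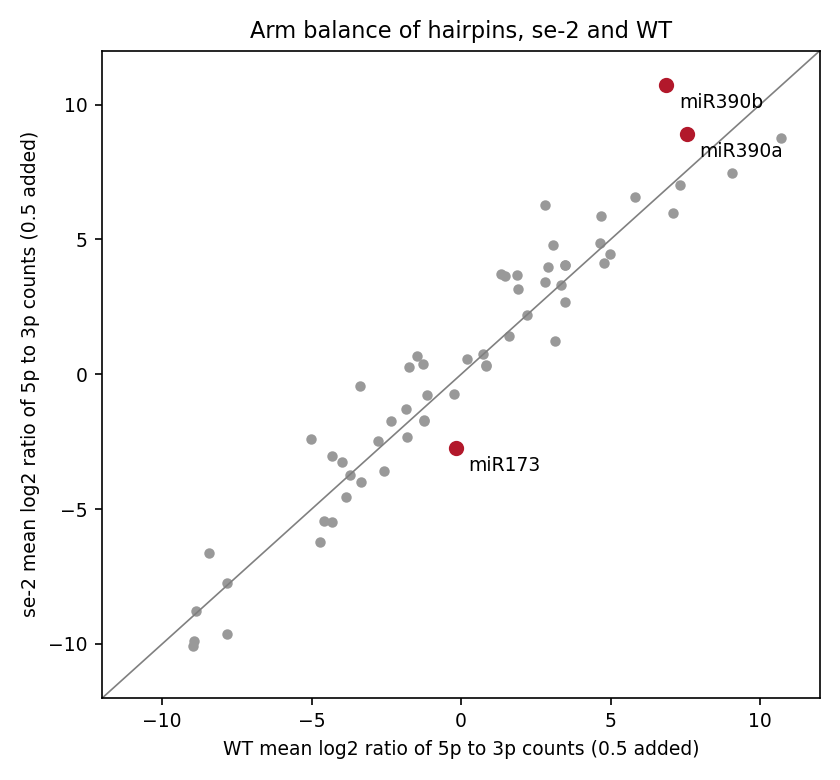
Mean log2 ratio of 5p to 3p counts (0.5 added to each) in se-2 against that in WT for 60 hairpins, with the identity line; miR173, miR390a and miR390b are in red. miR173 lies under the line, at -2.74 in se-2 and -0.18 in WT, and both miR390 hairpins lie above it.

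Other miRNAs known to trigger secondary siRNAs had calls in se-2 that depended on the scaling. Of 9 such entries, 7 were tested, of which 1 was called higher and 2 lower in se-2 against WT with TMM, beside 42.2% higher and 30.4% lower over all entries, with a median log2 value of -0.28 beside 0.11 over all entries. With DESeq2 size factors 1 was higher and 6 were lower (median -0.64), and with the reference scaling 0 were higher and 7 lower (median -2.65). The lower ones with TMM were miR161-1 and miR161-2, overlapping products of a single hairpin that target pentatricopeptide repeat transcripts, whose counts differed by at most 1 in a library. miR161-1 averaged 7536 ± 347.7 CPM in se-2 against 21277 ± 1072 CPM in WT, a log2 value of -1.50 (adjusted p = 3.1e-08 with edgeR). The higher one was miR472-3p, which targets disease resistance genes of the NLR class, with 294.6 ± 54.7 CPM in se-2 against 162 ± 4.50 CPM in WT, a log2 value of 0.85 (adjusted p = 0.0014 with edgeR) that turned to -1.53 with the reference scaling (adjusted p = 7.4e-06 with edgeR).

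For chr2 against WT, 2 of the 7 were called higher and 0 lower with TMM, beside 10.4% higher and 19.6% lower over all entries, with a median of 0.18 beside -0.15. With the reference scaling 0 were higher and 3 lower (median -0.18). Those higher with TMM were the 5p arms of miR168a and miR168b, which target AGO1. They had log2 values of 0.57 and 0.59 (adjusted p = 0.038 and 0.033 with edgeR). Both calls were lost with the reference scaling, at 0.23 and 0.25 (adjusted p = 0.47 and 0.44 with edgeR). Counts of these arms were close in each library, such as 3289 and 3160 in chr2 replicate 1, so the calls may be 1 measurement counted for each copy. miR393a-5p, which targets auxin receptor genes, had a log2 value of 0.46 in chr2 against WT (adjusted p = 0.081 with edgeR) and counts equal to those of miR393b-5p. miR400, another regulator of pentatricopeptide repeat genes, had a log2 value of -0.33 in se-2 against WT (adjusted p = 0.15 with edgeR). miR828, a trigger of TAS4, had 1 count in chr2 replicate 2, 1 in WT replicate 3 and 0 elsewhere, and was not tested. In se-2 against chr2, 1 of the 7 was called higher and 5 lower with TMM, beside 47.4% higher and 33% lower over all entries. Their median was -0.82, beside 0.51 over all entries. No higher call was left under DESeq2 size factors (6 lower, median -1.39) or under the reference scaling (7 lower, median -2.84). Under both of these, lower calls also outnumbered higher ones over all entries.

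The length of miR173-5p was shared with entries that changed in either direction. Outside miR173, 28 entries of 22 nt were tested, and in se-2 against WT 17 were called higher and 9 lower with TMM. Over all entries 42.2% were called higher and 30.4% lower. The median log2 value was 0.96 for the 28, beside 0.11 over all entries. Under the reference scaling 1 was higher and 16 lower, with a median of -1.41. In that scaling lower calls also outnumbered higher ones over all entries. Of the 28, 2 were higher and 6 lower in chr2 against WT with TMM, with a median of -0.19, beside 10.4% higher and 19.6% lower over all entries. Under either the DESeq2 size factors or the reference scaling without miR8175 it turned to 3 higher and 2 lower, and it was 2 and 2 with total counts and 1 and 9 with the reference scaling.

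The entries with the most similar pattern were found by distance in the plane of the log2 fold changes of se-2 against WT and chr2 against WT, among 258 tested entries with a mean of at least 10 CPM over the 9 libraries. For miR173-5p these were miR844-3p, at a distance of 0.23, miR847 at 0.82 and miR396a-3p at 0.86. miR844-3p had log2 values of -4.41 in se-2 and -0.27 in chr2. The se-2 values of miR173-5p and miR844-3p had SE of 0.46 and 0.73, above their distance, so the order of these entries is uncertain. For miR173-3p the most similar entries were miR165a-5p at 0.048, miR167a-5p at 0.069 and miR167b at 0.070. miR167a-5p and miR167b averaged 9198 and 9197 CPM and may be the same measurement. For miR390a-5p the most similar entries were miR842 at 0.21, miR400 at 0.32 and miR781a at 0.35.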

How the data were processed

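Per the labels' protocols, libraries were made from gel-purified RNA with lengths between 19 and 24 nt. Per the submitters' processing notes, TAIR10 and Bowtie 1.1.2 were used. How reads were counted, by which annotation, and what was done with reads of several matches is not given in the sources used here. Each of the 9 files deposited by the authors holds raw, unnormalized counts for mature miRNA entries. Genotypes came from the sample titles.

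Of 427 entries, 384 had counts, and 368 distinct count rows entered edgeR 4.0.16 (quasi-likelihood, robust, TMM; limma 3.58.1, R 4.3.3) in 1 fit of 9 libraries with genotype as the only term. The filter filterByExpr left 270 entries, over which the Benjamini-Hochberg adjustment was made (limit 0.05). All 6 miR173 and miR390 entries passed this filter. With TMM, a fold change is measured against the average miRNA. Shares and log2 ratios within libraries were compared by exact two-sided permutation tests (scipy 1.17.1). Intervals cover the error of counting reads only and leave out the spread between libraries. The reads had no molecular identifiers, so the intervals do not cover the error of counting molecules. No library was a copy of another of its genotype (chi-square divided by degrees of freedom was 3.47 to 113.7). The edgeR fit with TMM was tried on simulated counts with fold changes drawn equally in both directions. The shares, ratios, intervals and other scalings were not tried in this way.

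Alternatives changed the scaling (DESeq2 1.42.0 size factors, total counts, reference scaling with and without miR8175), the test (DESeq2, limma-voom), the filter, copies, the samples in the fit, the replicate block, the pseudocount of ratios (0.5 or 1) and the libraries. The named entries were the 6 members, a list of other triggers, and the 3 entries most like each of miR173-5p, miR173-3p and miR390a-5p. miR825-5p, a further trigger named by the rule for that list, is not counted among its 9 entries and was not analysed here. The members, lists and tests were chosen with earlier results of these data known. Sequences and coordinates are from RefSeq, TAIR10.1.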

Additional observations from a re-analysis of the deposited data

How the results depend on the processing

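In se-2 against WT, miR173-5p, miR173-3p, miR390a-3p and miR390b-3p kept direction and call in all 19 alternatives, and miR390a-5p in 18; without the low-count filter miR390a-5p and miR390b-5p had -0.41 (log2). In chr2 against WT, miR173-3p lost its call with DESeq2 size factors (-0.42), total counts (-0.57), reference scaling without miR8175 (-0.37), the DESeq2 test (-0.43), no filter (-0.47), 1 entry per sequence (-0.46) and only the genotypes compared (-0.44), and had -0.65 to -0.32 with single libraries left out. miR390a-5p and miR390b-5p gained a call as lower in chr2 with total counts (-0.41), reference scaling (-0.81) and limma-voom (-0.45), and miR390b-3p with reference scaling (-0.77). With reference scaling without miR8175, miR173-5p turned to 0.033 and miR390a-3p to 0.030 in chr2, and with single libraries left out they ranged from -0.52 to 0.17 and from -0.29 to 0.029. In se-2 against chr2, miR390a-5p and miR390b-5p were lower with both DESeq2 size factors and the DESeq2 test (-0.63 each), reference scaling (-2.08) and the same without miR8175 (-2.39), and turned to 0.040 with total counts; miR390a-5p was lower with 1 entry per sequence (-0.45). With single libraries left out, chr2 minus WT ranged from -3.27 to 9.33 percentage points for the miR173 5p share, -0.22 to 0.026 for the miR390 5p share, -0.32 to 0.47 for the log2 trigger ratio and -0.011 to 0.0018 percentage points for the miR173-5p share of all counts. The cause of these changes was not tested. No alternative moved a count of called entries by over 1.5 times, but the split of higher and lower calls moved with the scaling and with copies (80 and 83 in se-2 against WT with 1 entry per sequence). In se-2 against WT it was 96 and 118 with DESeq2 size factors, 16 and 191 under reference scaling (median shift -2.35) and 27 and 182 without miR8175 (-2.05), beside 114 and 82 with TMM. In the same order of scalings, it was for chr2 against WT 46 and 37, 14 and 105 (-0.34) and 43 and 28, beside 28 and 53, and for se-2 against chr2 102 and 114, 31 and 160 (-2.01) and 22 and 172 (-2.32), beside 128 and 89. No pairing by replicate number was seen: deviations of same-numbered libraries correlated at -0.21 to 0.084 and of others at -0.19 to 0.29. With 3 libraries per genotype, such correlations cannot settle whether the libraries were paired. The replicate block gave 186, 73 and 213 called entries, -4.66 for miR173-5p and -0.52 for miR390a-5p in se-2 against WT, and changed no call of the 6 entries. Low counts limit the se-2 values of miR173-5p and of both miR390 3p arms.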

Other observations

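In chr2 replicate 2 the log2 ratio of 5p to 3p counts of miR173 was 1.38 above the mean of the other chr2 libraries, beside a median absolute difference of 0.42 over the 60 hairpins, of which 3 had a larger one. The same value was -0.47 for miR390a and -0.33 for miR390b. This library was singled out after its values were seen, and no test was made.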
